A study of Mus musculus with 7 samples.

Results

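Oxidative phosphorylation and the tricarboxylic acid (TCA) cycle were examined through 39 mouse genes, 31 of them coding for subunits of respiratory complexes I to V or for cytochrome c and 8 for TCA cycle enzymes. All 39 were found on the annotation of the mm9 mouse genome, out of 22225 protein-coding genes. A gene was counted as occupied when the center of a PU.1 or MITF peak lay within 5 kb of any of its transcription start sites (TSSs). The peaks came from ChIP-Seq, in which an antibody recovers the chromatin that carries a protein and loci rich in sequenced fragments (tags) are called as peaks. Bone marrow myeloid cells of C57BLACK6 mice (C57BL/6J in the study's methods) aged 4 to 6 weeks were grown for 3 days with 50 ng/ml CSF1, the cytokine that maintains the macrophage lineage. The groups were myeloid precursors given CSF1 only (MPs), cells given CSF1 with 100 ng/ml RANKL, the osteoclast-inducing cytokine, for 36 h, and osteoclasts (OCs), given both for 72 h. From all 3 groups chromatin was precipitated with 5 µg of antibody against PU.1 or MITF, and a non-specific IgG served as control in MPs, giving 7 libraries with 1 library per condition. There is thus no replicate check on any difference between conditions, and errors cover sampling only. The labels do not say how many mice were pooled or what share of the cultured cells had become osteoclasts.

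Pyruvate and fatty acids are oxidised to carbon dioxide by the TCA cycle, whose dehydrogenases pass electrons to the respiratory chain. Complexes I and II feed electrons to ubiquinone, complex III passes them to cytochrome c, complex IV to oxygen, and complex V makes ATP from the proton gradient. Osteoclasts, the multinucleated cells that resorb bone, are rich in mitochondria. PU.1 (Spi1) is an ETS family factor required for the myeloid lineage and MITF is a basic helix-loop-helix factor that acts in osteoclasts and, with its relatives TFEB and TFE3, on lysosomal genes.

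The PU.1 lists held 71941 to 77072 peaks, the MITF lists 3540 to 5413 and the IgG list 349. Scores are tags scaled by the authors' peak caller to a common library size. The lowest score was 10.2 to 10.3 in the PU.1 lists, which is 6 or 7 tags, and 9.1 to 9.7 in the MITF lists, which is 8 to 10 tags. A weaker signal cannot be seen. Assuming that scores refer to 10000000 tags, the peak caller's default, the PU.1 libraries had 27.6% to 32% of their tags in peaks. On the same assumption the MITF libraries had 0.657% to 1.2%. PU.1 peaks of the 36 h list have a median width of 190 bp and those of the MP and OC lists of 150 bp. If tags were counted over the listed width, 36 h scores cover a wider stretch than the others, and the part of this in any difference from the 36 h library was not tested. Expression was not measured in these files, so the cells could be checked only by occupancy: 7 of 7 myeloid markers and 8 of 8 annotated osteoclast markers had a PU.1 peak within 5 kb in every condition, against 1 of 5 markers of other cells. MITF peaks lay near 4 of the 7 and 1 of the 8 in each list. Since the osteoclast markers were occupied in MPs already, this check does not tell precursors from osteoclasts.

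The sequences under the peaks at these genes show which letters PU.1 peaks covered. Idh2 and Sdhb had the highest peaks inside an intron of the gene itself. The peaks of Ndufa9 and Cs lie just upstream of their TSSs. Capitals mark GGAAGT, the core shared by ETS family sites, and all are the plus strand of mm9, 5′ to 3′. The Idh2 peak is chr7:87259515-87259665, that of Sdhb chr4:140520098-140520248, that of Ndufa9 chr6:126799166-126799316 and that of Cs chr10:127774401-127774551.
Idh2 intron, 628 bp downstream of a TSS: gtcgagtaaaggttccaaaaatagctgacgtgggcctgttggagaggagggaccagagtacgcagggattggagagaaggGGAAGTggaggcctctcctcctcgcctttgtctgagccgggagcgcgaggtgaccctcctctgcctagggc
Sdhb intron, 2855 bp downstream of a TSS: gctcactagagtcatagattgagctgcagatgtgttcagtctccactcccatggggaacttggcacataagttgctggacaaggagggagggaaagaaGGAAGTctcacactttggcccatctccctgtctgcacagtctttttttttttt
Ndufa9 promoter, 79 bp upstream of the TSS: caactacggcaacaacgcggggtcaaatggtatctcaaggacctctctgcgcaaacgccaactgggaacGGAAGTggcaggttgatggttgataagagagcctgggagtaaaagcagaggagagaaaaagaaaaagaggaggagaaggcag
Cs promoter, 412 bp upstream of the TSS: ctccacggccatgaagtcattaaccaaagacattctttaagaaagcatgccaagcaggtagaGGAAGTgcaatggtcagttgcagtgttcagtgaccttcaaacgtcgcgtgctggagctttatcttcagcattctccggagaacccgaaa

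At the TSSs themselves the sites are shown as 30 bases, since the peaks there reach into untranslated exons. Capitals mark CCGGAAGT, an ETS site with a CpG, in Ndufs1, Cox5b and Ndufs3, GAGGAAGT, the letters of the PU.1 consensus, in Ndufs4 and Ndufa5, and GCGCATGC, letters of the NRF1 consensus, in Sdhb and Ogdh. NRF1 is known for its sites in promoters of respiratory chain genes.
Ndufs1 (plus strand, peak 21 bp downstream of a TSS): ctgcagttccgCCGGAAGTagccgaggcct
Cox5b (plus strand, peak 3 bp downstream of a TSS): tcagcctgttcCCGGAAGTgcatctgcttg
Ndufs3 (plus strand, peak 9 bp upstream of a TSS): aagggcacggaCCGGAAGTggaaatgtgca
Ndufs4 (minus strand, peak 18 bp upstream of the TSS): ctttgagaacgGAGGAAGTgagtccctagc
Ndufa5 (minus strand, peak 148 bp downstream of a TSS): ttccataacctGAGGAAGTccgggtaaaat
Sdhb (minus strand, peak 84 bp downstream of a TSS): cggcccgtaggGCGCATGCccactgggctt
Ogdh (plus strand, peak 53 bp upstream of a TSS): ctaggtgttgtGCGCATGCgtaactcaact

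These letters were searched on both strands in the 150 bp around each OC peak center. GGAAGT, which is also contained in GAGGAAGT and CCGGAAGT, was in 21 of the 35 OC peaks within 1 kb of a TSS of these genes (60%), and in 52.9% of all PU.1 OC peaks within 1 kb of a coding TSS. GAGGAAGT was in 4 of the 35 (11.4%), against 14% of all such peaks and 24.1% of peaks over 5 kb from a coding TSS. CCGGAAGT was in 3 of 35 (8.57%), against 4.53% of all promoter peaks and 0.5% of distal ones, and GCGCATGC in 2 of 35 (5.71%) against 1.37%. Of the E-boxes that MITF binds, CACGTG was in 1 of 35 (2.86%), at Ndufv1, against 3.89%, and CATGTG in 3 of 35 (8.57%) against 6.49%. Whether or not a peak was there, GCGCATGC lay within 75 bp of the most 5′ TSS of 4 of the 39 genes (10.3%) and of 2.23% of all genes. These counts are small, and a match of letters is no evidence of binding by any factor.

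PU.1 peaks lay near most of these genes in every condition and MITF peaks near none. In the MP list 30 of 39 genes had a PU.1 peak within 5 kb (76.9%, 95% Wilson interval over genes 61.7% to 87.4%), in the 36 h list 34 (87.2%, 73.3% to 94.4%) and in the OC list 32 (82.1%, 67.3% to 91.0%). Of all protein-coding genes, 54.4% had a PU.1 peak in MPs, 55% at 36 h and 55.5% in OCs. Within 1 kb the counts were 23, 28 and 26 of 39 (59.0%, 71.8% and 66.7%), beside 35.4%, 37.2% and 38% of all genes. The genes have a median of 3 annotated TSSs against 2 over all genes, and their windows cover a median of 10.2 kb against 10.1 kb. No IgG peak lay within 5 kb of any of the 39 genes, and no PU.1 peak of theirs overlapped one.

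How high the peaks stood against all genes depended on the window. The highest score within 5 kb had a median of 26.45 over the occupied genes in MPs, 23.65 at 36 h and 29.4 in OCs, all below the 34.1, 32.5 and 35.2 of all occupied genes. Within 1 kb the medians were 27.3, 22.9 and 29.4, against 25.6, 25.1 and 26.4, and so above those of all genes in MPs and OCs and below at 36 h. Where only peaks at 2 or more times the list's lowest score were kept, 19, 20 and 22 of the 39 genes had one (48.7%, 51.3% and 56.4%), against 38.9%, 38.8% and 40.1% of all genes. The Wilson interval of the members held the share of all genes at this height in MPs (33.9% to 63.8%) and at 36 h (36.2% to 66.1%). In OCs (41.0% to 70.7%) it began just above that share. The intervals are over genes and are no test between conditions. For lists described next, OC shares at this height were 55.4% (other subunits and enzymes), 65.9% (ribosomal protein genes) and 91.4% (lysosomal and vacuolar ATPase genes).

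Related lists of genes had shares of the same order. The other 56 subunits and enzymes of the same pathways had a PU.1 peak at 46 genes in each of the 3 lists (82.1%). Of 15 assembly factors and carriers 11, 10 and 11 had one. Of 82 ribosomal protein genes, picked by their symbols, 73, 77 and 73 had a PU.1 peak, with median highest scores of 25.6, 29.6 and 30.8. The 35 genes of lysosomal proteins and of the vacuolar ATPase, which acidifies the resorption pit, were occupied at 34, 34 and 35 genes with much higher medians of 84.45, 82.05 and 79.3.

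**Figure D1:**
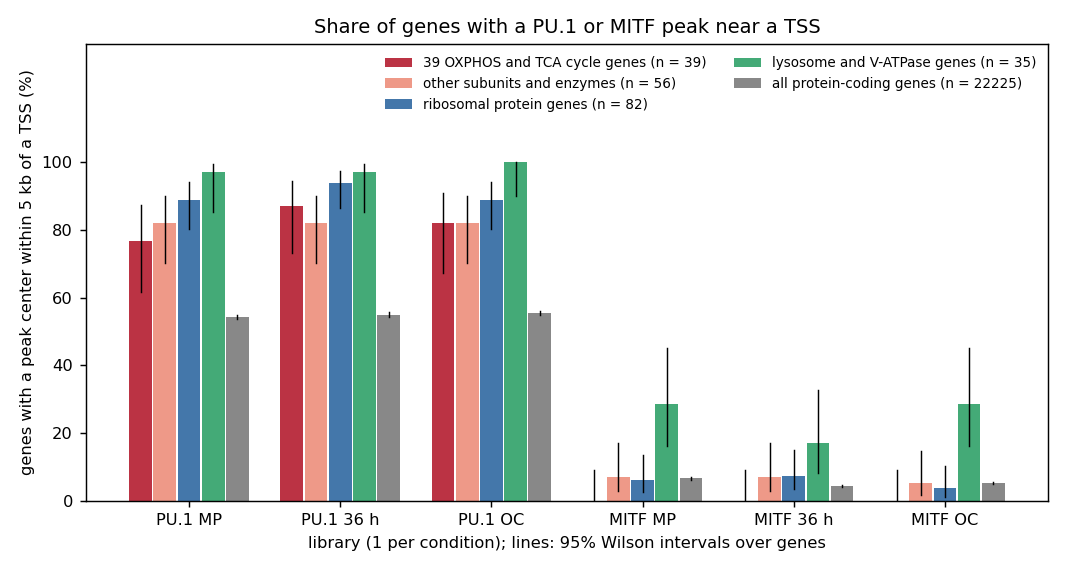
Share of genes with a peak center within 5 kb of a TSS (y axis, percent) in the 6 PU.1 and MITF lists (x axis), for 5 lists of genes; bars give the share and black lines the 95% Wilson interval over genes. In the PU.1 lists the 39 genes stand at 76.9% to 87.2%, above the 54.4% to 55.5% of all genes, and in the MITF lists they stand at 0.

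Within the 5 kb window, peaks near these genes lay closer to a TSS than those near all genes did. Of the gene and peak pairs within 5 kb, 34.0% in MPs (18 of 53), 31.5% at 36 h (17 of 54) and 32.3% in OCs (20 of 62) had the peak center within 150 bp of a TSS of the gene. Over all genes these shares were 15.4%, 17.5% and 17.0%. The median distance was 812, 444 and 703.5 bp, against 1378, 1284 and 1289 bp over all genes. Ribosomal protein genes had still higher shares within 150 bp, 37.5%, 39.8% and 35.6%, and lysosomal genes shares near those of all genes, 15.3%, 16.7% and 18.8%. Distances were taken to the nearest of a gene's annotated TSSs, a median of 3 for the 39 genes and 2 over all genes. Ribosomal protein genes had a median of 4 and lysosomal genes of 2. The part of TSS number in these shares and distances was not tested. Scores within 1 kb had medians of 18.8, 19.95 and 22 for the 39 genes and of 22.2, 22.2 and 22 over all genes. Of the 62 OC peaks, the centers of 32 lay in introns, 14 between genes, 9 in 5′ UTRs, 6 in non-coding exons and 1 in a coding exon. For 10 peaks in MPs, 11 at 36 h and 11 in OCs the nearest coding TSS belonged to a neighbouring gene.

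**Figure D2:**
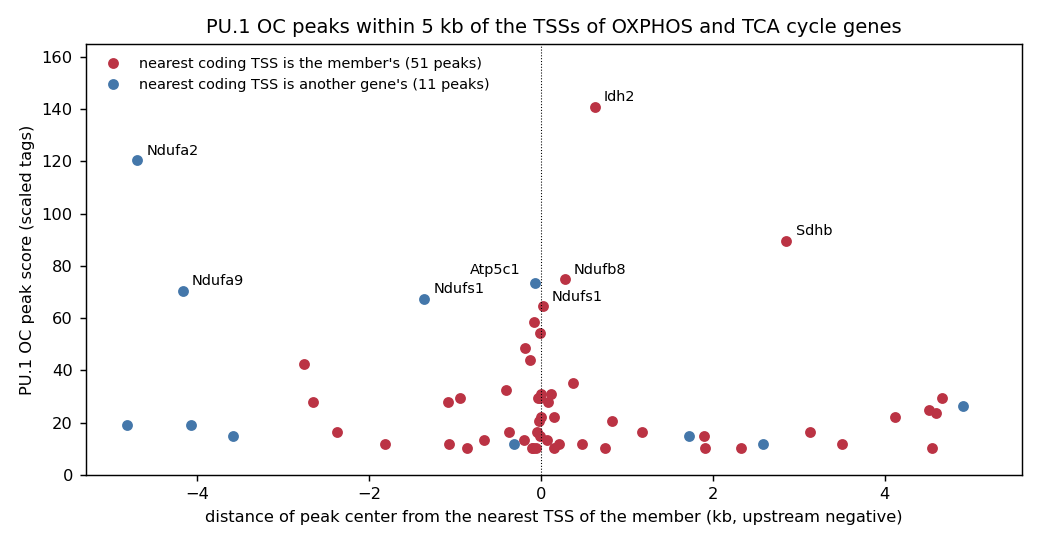
Score (y axis) of the 62 PU.1 OC peaks near the 39 genes against the distance of the peak center from the nearest TSS of the gene (x axis, kb, upstream negative); blue points have a nearest coding TSS of another gene. Points crowd at the TSS, the highest, Idh2 at 141, lies just downstream of one, and 4 of the 8 peaks above 60 are nearer to another gene's TSS.

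Complex I, the NADH dehydrogenase, had the highest median score among the groups with more than 2 occupied genes. Of the 13 genes grouped with it, 11 had a PU.1 peak in MPs, 12 at 36 h and 11 in OCs. Their median highest scores were 39.2, 42.85 and 48.5. The 13 include Ndufa4, placed here by its name although its product is now assigned to complex IV. The highest score near a complex I gene, at Ndufa2, was 98.9 in MPs, 138.9 at 36 h and 120.4 in OCs, but the peak lies 4698 bp upstream of Ndufa2, in a coding exon of the neighbouring gene Ik. Ndufb8, an accessory subunit, had 63.1, 57.6 and 74.9 at a peak 278 bp downstream of a TSS. Ndufs1 and Ndufv1 were occupied close to a TSS, while Ndufv2, another core subunit, had peaks only over 2 kb from one. Ndufs1, which holds iron-sulfur clusters, had scores of 39.2, 57.6 and 64.6 at chr1:63223300-63223450 in its 5′ UTR. Ndufv1, which carries the flavin site that oxidises NADH, had 30.7, 45.8 and 44.1 at chr19:4012857-4013007, 126 bp upstream of a TSS. In both genes the MP score was the lowest of the 3.

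Other genes grouped with complex I differed in which condition had the lowest score. Ndufs4, Ndufb5, Ndufa4 and the promoter peak of Ndufa9 had it in MPs. The highest scores of Ndufb8, Ndufs3 (27.3, 25.1 and 35.2) and Ndufv2 (37.5, 26.6 and 42.6) were lowest at 36 h. Of all shared peaks within 1 kb of a coding TSS, 64.6% were above the median ratio of shared peaks from MPs to 36 h. From MPs to OCs 58.8% were. Ndufs4, an accessory subunit, had 39.2, 39.9 and 54.3 at chr13:115178245-115178395. Ndufa9 had 42.6, 60.6 and 58.7 at its promoter, and a second peak 4170 bp upstream with 92.1, 54.7 and 70.5, which lies 216 bp from a TSS of Akap3. Ndufb5 had 42.6, 68 and 48.5. Ndufa4, 319 bp from a peak that is 44 bp from a TSS of Phf14, stayed near the lowest score with 10.2, 11.8 and 11.7. Ndufa1, on chromosome X, had a peak only in the 36 h list, at the lowest score of 10.3, and Ndufb3 had none in any list.

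In complex II, succinate dehydrogenase, which belongs to both the chain and the TCA cycle, Sdhb stood apart. The iron-sulfur subunit gene Sdhb had 88.7, 78.3 and 89.6 at its intronic peak and 32.4, 45.8 and 27.9 at its TSS. Highest scores of the other 3 genes were 10.2 to 15.4 in MPs and at most 19.1 in OCs. Sdhd, a membrane anchor, had 13.6 in MPs and 13.3 at 36 h and no peak in the OC list.

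Complex III had the smallest share of occupied genes, 1, 2 and 1 of 4. Uqcrc2, a core protein, had 18.8, 28.1 and 29.4 at its TSS. Uqcrfs1, the Rieske iron-sulfur protein, had only a peak of 10.3 at 36 h, 3726 bp away. Uqcrc1, the other core protein, and Cyc1, cytochrome c1, had no PU.1 peak in any list. Cycs, the mobile electron carrier cytochrome c, had 23.9, 22.2 and 27.9 at a peak about 2.7 kb upstream.

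In complex IV, cytochrome c oxidase, 5, 5 and 6 of the 6 genes grouped here had a peak (Ndufa4 not counted). Cox5b had 15.4, 28.1 and 30.8, Cox7c 17.1, 17.7 and 29.4, and Cox7a2 34.1, 50.3 and 30.8, all within 150 bp of a TSS. Cox5a had a different profile, with 69.9, 44.3 and 29.4 at its intronic peak. Cox4i1 had 20.5, 10.3 and 14.7 at a peak 3584 bp upstream, and Cox6c a single OC peak of 11.7. In complex V, the ATP synthase, Atp5c1, the gamma subunit of the rotor, had 46.1, 54.7 and 73.4 at chr2:10002132-10002282, which lies 70 bp upstream of its TSS and 13 bp from a TSS of Kin. Atp5b, the catalytic beta subunit, had 25.6, 19.2 and 27.9. Atp5a1, the alpha subunit, had no PU.1 peak in any list.

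The TCA cycle genes had peaks at 6 of 8 genes in MPs and at 8 of 8 at 36 h and in OCs, but mostly low ones, with medians of 20.5, 17.75 and 17.65. Idh2, the mitochondrial NADP-dependent isocitrate dehydrogenase, was the exception, with the highest OC score of the 39 genes: 109.2 in MPs, 127.1 at 36 h and 141 in OCs (64, 86 and 96 tags). Cs, citrate synthase, had 30.7, 23.7 and 32.3 at its promoter peak. Highest scores of the remaining 6 genes did not pass 25.6 in any list.

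**Figure D3:**
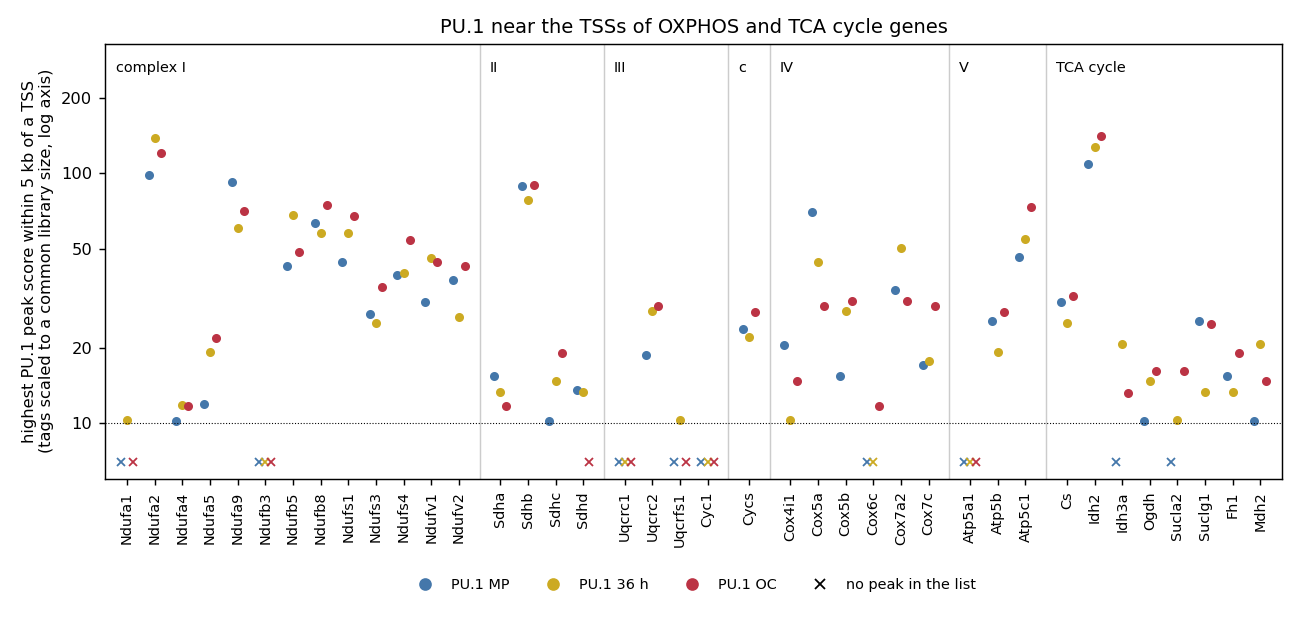
Highest PU.1 score within 5 kb of a TSS (y axis, scaled tags, log axis) of each of the 39 genes (x axis, grouped by complex, c for cytochrome c) in MPs, at 36 h and in OCs, 1 library each; crosses stand for no peak in the list and the dotted line marks a score of 10. Complex I genes sit high, complex III holds more crosses than any other group, and Idh2 at 141 stands above the other TCA cycle genes.

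Presence of a peak was mostly shared between conditions. PU.1 peaks were near 29 of the 39 genes in all 3 lists (48.5% of all genes were), and 4 genes, Ndufb3, Uqcrc1, Cyc1 and Atp5a1, had none in any (38.6% of all genes). From MPs to 36 h 4 genes gained a peak and none lost one, where 4.92% of all genes gained and 4.24% lost one. From 36 h to OCs 1 gene gained and 3 lost a peak, beside 4.33% and 3.85% of all genes. From MPs to OCs 3 genes, Cox6c, Idh3a and Sucla2, gained and Sdhd lost a peak, beside 4.89% and 3.73%. Idh3a, a subunit of the NAD-dependent isocitrate dehydrogenase, had 20.7 at 36 h and 13.2 in OCs. Sucla2, of succinyl-CoA ligase, had 10.3 and 16.2. As shares of the 39 genes, 10.3%, 2.6% and 7.7% gained and 0%, 7.7% and 2.6% lost a peak in these 3 comparisons. Counts this small cannot be separated from the shares of all genes. Scores of the gained and lost peaks ran from 10.2 to 20.7, near the lowest that the lists hold. With a window of 1 kb in place of 5 kb the genes that differed between MPs and OCs were 9 in place of 4. The share of all genes that differed within 1 kb was not computed, so these 9 cannot be set against a background.

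Tags at PU.1 peaks shared by 2 lists (overlap of at least 1 bp) were compared by an exact binomial test against the median ratio of all shared peaks, with Benjamini-Hochberg adjustment over all of them. The test compares 2 libraries, not the conditions. No peak near the 39 genes passed an adjusted p under 0.05 with a 2-fold change: 0 of 44 from MPs to 36 h, 0 of 45 from 36 h to OCs and 0 of 43 from MPs to OCs, where 1.05%, 0.0707% and 0.155% of all shared peaks passed. At an unadjusted p under 0.05 by the same test there were 3 peaks in each of the 3 comparisons. Among all shared peaks there were 6163 of 56294, 3729 of 57962 and 4703 of 60043, so the 3 peaks do not stand out from the background. Past 2-fold with no test, 1 peak was higher and none lower at 36 h than in MPs (Mdh2, 10.2 and 20.7), beside 4.01% and 3.41% of all. Relative to promoter peaks of like GC content this became none higher and 1 lower. That ratio was applied to all 44 peaks, of which 17, the Mdh2 peak among them, lie 1 to 5 kb from a TSS. From 36 h to OCs 1 was higher and none lower (Ndufs3, 10.3 and 29.4), beside 1.97% and 2.61%. From MPs to OCs 1 was higher and 1 lower, beside 2.99% and 2.38%.

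The peak that was 2-fold lower in OCs than in MPs was the intronic peak of Cox5a, a subunit of cytochrome c oxidase. It held 41 tags in MPs and 20 in OCs, a log2 difference of -1.23 (exact 95% interval -2.08 to -0.42), with an adjusted p of 0.191 by the exact binomial test. The score at 36 h, 44.3, lay between. The next lower differences were a second Cox5a peak (-0.65), the Ndufv2 peak that lies 4599 bp downstream (-0.65, scores of 37.5 and 23.5), Cox4i1 (-0.46), and Sdha and the distal peak of Ndufa9 (-0.36 each). All 5 of these intervals included 0.

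The peak that was 2-fold higher in OCs was at the TSS of Cox5b, another subunit of the same complex, where MPs had 9 tags and OCs 21 (log2 1.03, interval -0.16 to 2.34, adjusted p 0.706). Next came an intronic peak of Ndufv2, whose product binds an iron-sulfur cluster beside Ndufv1 (log2 0.96, 22.2 and 42.6), Ndufa5 (0.91, 11.9 and 22), Cox7c (0.81) and Ndufs1 at its TSS (0.74, 23 and 44 tags, interval -0.02 to 1.54). All of these intervals included 0. Cox5a and Cox5b, both complex IV genes, thus stood at opposite ends of the 43 peaks, and Ndufv2 had peaks near both ends.

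**Figure D4:**
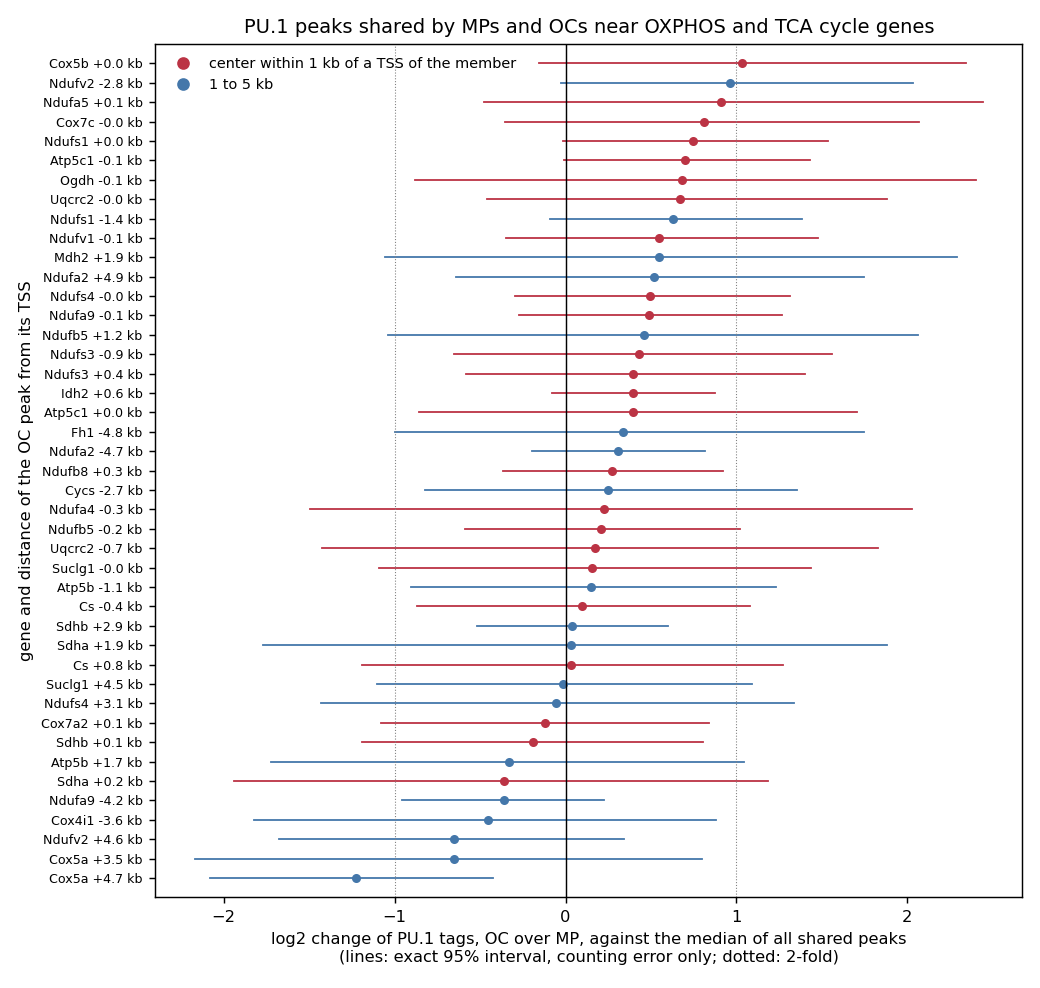
Log2 difference of PU.1 tags between OCs and MPs (x axis, relative to the median of all shared peaks) at the 43 peaks shared by MPs and OCs (y axis, gene and distance from its TSS); points give the estimate, lines the exact 95% interval from counting error, red marks centers within 1 kb of a TSS and blue 1 to 5 kb. Red points lie mostly right of 0 (21 of 24), and Cox5a at -1.23 has the only interval that lies wholly to one side of 0.

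No single peak passed the test, while the promoter peaks lay mostly on one side of the median ratio. Within 1 kb of a TSS, 21 of 24 shared peaks of these genes had more tags in OCs than the median ratio gives, with a median log2 difference of 0.39. Of all shared peaks within 1 kb of a coding TSS 58.8% did, with a median of 0.10. The 19 peaks 1 to 5 kb away had a median of 0.04 (11 higher), and peaks over 5 kb from any coding TSS -0.02. From MPs to 36 h 22 of 27 promoter peaks were higher (median 0.33), beside 64.6% of all promoter peaks (median 0.17). From 36 h to OCs 16 of 26 were higher (median 0.05), beside 43.5% of all promoter peaks (median -0.08). These comparisons share libraries. From MPs to OCs the median was 0.16 at the promoter peaks of the other subunits and enzymes (21 of 33 higher), 0.02 at those of ribosomal protein genes (35 of 69) and 0.12 at those of lysosomal genes (18 of 30).

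GC content moved with this result. Over all shared promoter peaks the median log2 difference from MPs to OCs was -0.30 at a GC content of 30% to 40%, -0.04 at 40% to 50%, 0.13 at 50% to 60%, 0.31 at 60% to 70% and 0.39 above 70%. From MPs to 36 h it ran from -0.32 to 0.56 over the same steps. The promoter peaks of the 39 genes had a median GC content of 55% in the comparison of MPs with OCs, against 53.3% over all. Relative to promoter peaks of like GC content, their median was 0.31 from MPs to OCs (20 of 24 above) and 0.07 from MPs to 36 h (14 of 27 above). The part of GC content in the result was not tested beyond this.

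No MITF peak was called near these genes. In MPs, at 36 h and in OCs 0 of 39 genes had a MITF peak within 5 kb, which allows a share of up to 7.69% for counting error, where 6.61%, 4.3% and 5.22% of all genes had one. So few genes cannot separate 0 from the background. The nearest MITF peak to any of them belonged to Sdhc, 6.63 kb from its TSS in MPs, 6.64 kb at 36 h and 6.63 kb in OCs. Median distances to the nearest MITF peak were 152.7 kb, 220.4 kb and 152.7 kb, against 128.4 kb, 197.2 kb and 149.6 kb over all genes. Within 50 kb 10, 6 and 7 genes had a MITF peak (28.7%, 21.2% and 25.7% of all genes). The lysosomal and vacuolar ATPase genes had a MITF peak within 5 kb at 10, 6 and 10 of 35 genes (28.6%, 17.1% and 28.6%), so the same lists did show MITF near another list of genes.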

How the data were processed

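Occupancy of PU.1 and MITF was measured by ChIP-Seq in 7 libraries, which were grouped by their labels. According to the submitters' processing notes and the methods, reads were processed with CASAVA 1.8, mapped with Bowtie2 to mm9, and peaks were called with HOMER. The authors deposited 1 peak list per library, in which each peak has a score, the tags in it scaled to a common library size. Which versions of Bowtie2 and HOMER and which peak-calling settings were used is not given in the sources used here.

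Scores were whole multiples of 1 value per list to within 0.055, and dividing by it gave tags. Assuming that scores refer to 10000000 tags, HOMER's default, the libraries held 3120000 (IgG) to 10300000 tags (MITF 36 h). Tags are not known to be distinct molecules, so intervals and floors cover counting error only. Peak centers were set against all annotated TSSs of GENCODE protein-coding genes on mm9 (chromosomes 1 to 19, X and Y), and a peak counted for every gene in whose window it lay. Shared peaks were tested as described in the report. The counting and the test were checked on simulated data, the test with 4-fold changes from MPs to OCs only. Of 200 pairs simulated as changed, 193 were called in the right direction, and 4 unchanged pairs were called. Shared peaks near the genes of this report had a median of 33 tags in MPs and OCs together. How often the test would find a 2-fold change at such peaks was not tested.

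The 39 genes and the lists compared with them were chosen with earlier results of these data known. By rule, genes were named for the 5 highest OC scores, the 5 largest differences each way from MPs to OCs, a MITF peak, no PU.1 peak in any list, or a called change. Other members were named after their values were seen, to account for each complex. Of 36 listed lysosomal genes 35 were annotated. The sequences were read from the mm9 genome. Values near 1 other pathway gene and 1 peak sequence are not reported here. Alternatives were windows of 1 and 10 kb, a minimum of 2 times the lowest score, IgG peaks removed, lists of equal size, 1 TSS per gene, the nearest gene only, MITF peaks of 150 bp, centers within 100 bp, another expected ratio and a fold limit of 1.5. Python 3.11.15, numpy 2.4.6, scipy 1.17.1, matplotlib 3.10.9, pysam 0.24.0 and samtools 1.23.1 were used.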

Additional observations from a re-analysis of the deposited data

How the results depend on the processing

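Of 141 values recomputed under an alternative, 122 stayed close to the value reported, within 1.5 times for counts and within counting error for scores. A part of the 122 could not move, so this share overstates how stable the results are. Alternatives that only remove peaks or narrow the window left the MITF counts of 0 at 0. Removing IgG peaks changed nothing because no peak of these genes lay over one. Among peaks of at least 2 times the lowest score, 19 genes had a PU.1 peak in MPs and 20 at 36 h, the median highest score at 36 h became 45.05, and 7 genes differed between MPs and 36 h. In a window of 10 kb 1 gene, Sdhc, had a MITF peak in MPs, 1 at 36 h and 1 in OCs, and 2 genes differed in PU.1 between MPs and 36 h and 2 between 36 h and OCs. Between MPs and OCs 9 genes differed in a window of 1 kb and 8 when a peak was counted for the nearest coding TSS only. The shares of all genes that differed under these alternatives were not computed. Peaks past the fold limit became 17, 10 and 12 in the 3 comparisons at 1.5-fold, 0, 0 and 1 among higher peaks, and 2 from MPs to 36 h with the expected ratio set by the value of 1 tag. With the expected ratio of promoter peaks of like GC content, an alternative chosen after seeing the data, 0 peaks passed 2-fold from MPs to OCs. This ratio was applied also to peaks 1 to 5 kb from a TSS, such as that of Cox5a. Counts of called peaks were 0 under every one of these settings. Counting only peaks whose nearest RefSeq transcript in the lists is that of the gene was also chosen after seeing the data. It stands in for a planned limit on the lists' own distances, which was not run because the lists hold no distances. No paired analysis was possible because each condition has 1 library. The causes of these shifts were not tested. The depth limits the lists to peaks of 6 or more tags, and a 2-fold difference at a peak of few tags cannot be told from sampling noise.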

Other observations

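Genes that act on mitochondrial gene expression were occupied by PU.1 too. All 11 of those listed had a PU.1 peak within 5 kb in MPs, 9 at 36 h and 10 in OCs. Of all genes 54.4%, 55% and 55.5% had one. The windows of these 11 genes are wider, however, with a median of 20.1 kb covered against 10.1 kb. Within 1 kb 7, 6 and 8 of the 11 had a PU.1 peak, beside 35.4%, 37.2% and 38% of all genes. Tfb2m, a mitochondrial transcription factor, had highest scores of 88.7 in MPs, 133 at 36 h and 111.6 in OCs. Nrf1, the activator of respiratory chain genes, had 40.9, 59.1 and 63.1, and Tfam, which packages mitochondrial DNA, 35.8, 38.4 and 57.3. Esrra, an orphan nuclear receptor of energy metabolism, had 10.2, 19.2 and 25. Ppargc1a, a coactivator of mitochondrial biogenesis, had 11.9 in MPs and no peak in the other PU.1 lists, and Ppargc1b, its relative, had 30.7, 29.6 and 29.4. By the exact binomial test of shared peaks, 0 of 13, 0 of 15 and 0 of 15 peaks near the regulators were called from MPs to 36 h, from 36 h to OCs and from MPs to OCs. Of all shared peaks 1.05%, 0.0707% and 0.155% were called.

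MITF peaks lay within 5 kb of 4, 4 and 3 of the other 56 subunits and enzymes in MPs, at 36 h and in OCs. These shares were 7.14%, 7.14% and 5.36%, beside 6.61%, 4.3% and 5.22% of all genes. None of the 11 regulators had a MITF peak within 5 kb. The subunits and enzymes named here were chosen after their values were seen. Atp5o, of the ATP synthase, had 13.5, 32.1 and 17.1 at about 1.67 kb upstream. All peaks of the MITF 36 h list had a median score of 23.4, against 12.5 in MPs and 11.4 in OCs, and were up to 1387 bp wide against 150 bp, so MITF scores at 36 h are not compared with the others. Ndufs8 had 19.7 and 12.7 in MPs and at 36 h, Idh3g 9.3 and 11.7, and Dlat, of the pyruvate dehydrogenase complex, 11.4 in OCs only.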
